A study of Mus musculus with 12 samples.

Results

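The transcripts described here are those of 10 genes of the NF-kB system in 12 mouse tumors. They are the subunits Rela, Nfkb1, Rel, Relb and Nfkb2, the kinase Ikbkb, the feedback inhibitors Nfkbia, Nfkbie and Tnfaip3, and the IkB-family gene Nfkbiz. They were taken by symbol from a table of 55401 genes, and all 10 passed the filter on low counts that left 20818 genes for testing. None of the 10 was called in any of 8 comparisons, in which 0% to 1.45% of all genes were called. Rela was at 1.26-fold and Nfkb2 at 1.17-fold of Control in tumors exposed to inorganic arsenic (iAs) without stromal cells, both under the 1.5-fold minimum and with adjusted p of 0.0659 and 0.0754 by edgeR.

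Each tumor grew from 125000 TC2Ras cells, a Ras-driven mouse prostate cancer line, placed under the skin of both flanks, and the flanks of 1 mouse were joined into 1 sample on day 21. Control tumors held TC2Ras cells alone in mice drinking water with 0 ppb iAs. ASC tumors had 1% of ASC-GFP cells mixed in, which are primary adipose stromal cells of male mice that carry GFP under the ubiquitin C promoter, again with 0 ppb iAs. A300 tumors held TC2Ras cells alone at 300 ppb iAs in the drinking water from implantation on, and ASC300 tumors had both. All mice had low-arsenic AIN-76A chow and purified water beforehand, and there were 3 tumors per group. The strain and age of the recipient mice are not given in the sources used here, and TC2Ras is a single line. The sample labels name the source as adipose stromal cells, whereas the protocols describe whole tumors, which contain cells of the recipient.

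NF-kB is a family of dimeric transcription factors held in the cytoplasm by IkB proteins. In the canonical route, signals from TNF, interleukin-1 or Toll-like receptors activate a kinase complex, of which Ikbkb is the main catalytic subunit, and this leads to the destruction of the IkB protein encoded by Nfkbia and to the entry of dimers such as RELA with the Nfkb1 product p50 into the nucleus. In the alternative route, the Nfkb2 precursor is cut to p52, which pairs with RELB. The activated factors raise transcription of their own inhibitors, so that Nfkbia, Nfkbie and Tnfaip3 transcripts are widely read as a trace of recent activity. The activity of RELA itself is set mostly by location and modification of the protein, which a transcript level does not show. In whole tumors, fewer cells of a type and less RNA per cell cannot be told apart.

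Total counts per tumor ran from 39157647 to 55168642. Control replicate 1 stood apart from the other 11 tumors, with a score of -101.8 on the first principal component, which took 17.27% of the variance. The summed level of 9 B cell markers was 270.0 CPM (counts scaled to library size by TMM) in that tumor and 5.78 to 21.7 in the others, where Ms4a1 and Fcer2a were at 0 in at least 1 tumor. The markers of prostate epithelium were low, with sums of 27.4 to 364 CPM, and Krt5, Krt14, Trp63 and Cldn4 were at 0 in at least 1 tumor, while 8 fibroblast markers summed to 5340 to 10100 CPM. Skeletal muscle markers summed to 1700 CPM in Control replicate 2 and 1730 CPM in A300 replicate 1, against 2.65 to 348 CPM in the others.

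Several of these genes carry near their start sites letters that match kappaB sites, the sequences that NF-kB dimers bind, and these stretches are shown because such sites are the textbook basis for reading the inhibitors as feedback. The RefSeq promoter table (GRCm38.p6) had entries for 6 of the 10 genes, with 9 promoters of 300 bases among them. The kappaB consensus, searched on both strands, was present in 7 of the 9 (77.8%), against 8.46% of the 32851 promoters in the table. Some promoters of Nfkb2 overlap and hold the same GGGACTTTCC, so that the 9 are not independent. Counted by gene, 5 of 6 (83.3%) had the consensus, against 9.55% of genes in the table. These were Nfkbia, Nfkbie, Tnfaip3, Rel and Nfkb2, and not Rela. Below are the 130 bases before the start site of 3 of these genes and of Irf1, an interferon-induced transcription factor. Irf1 serves as a contrast by its level in these tumors and not by its promoter printed here, which also held a kappaB match. Each is written 5′ to 3′ on the strand of the gene, with the kappaB match in capitals. The regions are chr12:55492648-55492777 (minus strand) for Nfkbia, chr17:45555570-45555699 (plus strand) for Nfkbie, chr11:23770970-23771099 (minus strand) for Rel and chr11:53769884-53770013 (plus strand) for Irf1.
Nfkbia: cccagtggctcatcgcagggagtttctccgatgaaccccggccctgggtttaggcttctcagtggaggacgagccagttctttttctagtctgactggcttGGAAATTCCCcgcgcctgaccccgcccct
Nfkbie: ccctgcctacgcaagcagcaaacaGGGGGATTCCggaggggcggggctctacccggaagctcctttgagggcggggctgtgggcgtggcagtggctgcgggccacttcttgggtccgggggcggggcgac
Rel: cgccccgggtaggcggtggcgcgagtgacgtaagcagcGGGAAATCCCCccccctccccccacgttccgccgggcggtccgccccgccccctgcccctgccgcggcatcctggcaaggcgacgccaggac
Irf1: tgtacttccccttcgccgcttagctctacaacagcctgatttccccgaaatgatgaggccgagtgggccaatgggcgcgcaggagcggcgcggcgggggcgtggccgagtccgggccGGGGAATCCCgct

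In Nfkbia the match ended 20 bases before the start site, and in Rel the 11 capitals hold 2 overlapping matches. A promoter of Tnfaip3 held GGGACACCCC and GGAAATCCCC, the latter ending 3 bases before the start site, while another promoter of this gene held no match. One promoter of Nfkb2 held GGGAATTCCCC and GGGGCTTTCC. The printed promoter of Irf1 held GGGGAATCCC, ending 4 bases before the start site, and another promoter of Irf1 held no match. These matches are letters in a window and say nothing of binding in these tumors.

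Expressed per kilobase of the principal transcript, Rela was the most abundant of the 10 with 48.2 CPM per kb (range 40.3 to 55.5 over 12 tumors). Nfkb2 (41.7), Nfkb1 (33.7) and the inhibitor Nfkbia (33.2) came next, with ranges that overlapped from each gene to its neighbour. A gap separated these from Ikbkb at 17.2 CPM per kb, which overlapped with Relb at 12.5. A further gap led to Nfkbie (5.42), Nfkbiz (5.19) and Tnfaip3 (4.78), whose ranges overlapped, and Rel was lowest at 1.84 CPM per kb (range 1.28 to 2.72). With the merged exons of a gene as its length, Rela stayed first and Rel last, but Ikbkb moved to the 8th place, since its merged exons span 19078 bases and its principal transcript 3580. This second length was added as an alternative after the data were seen. By either length Rela was the most and Rel, the subunit known best from lymphoid cells, the least abundant.

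**Figure D1:**
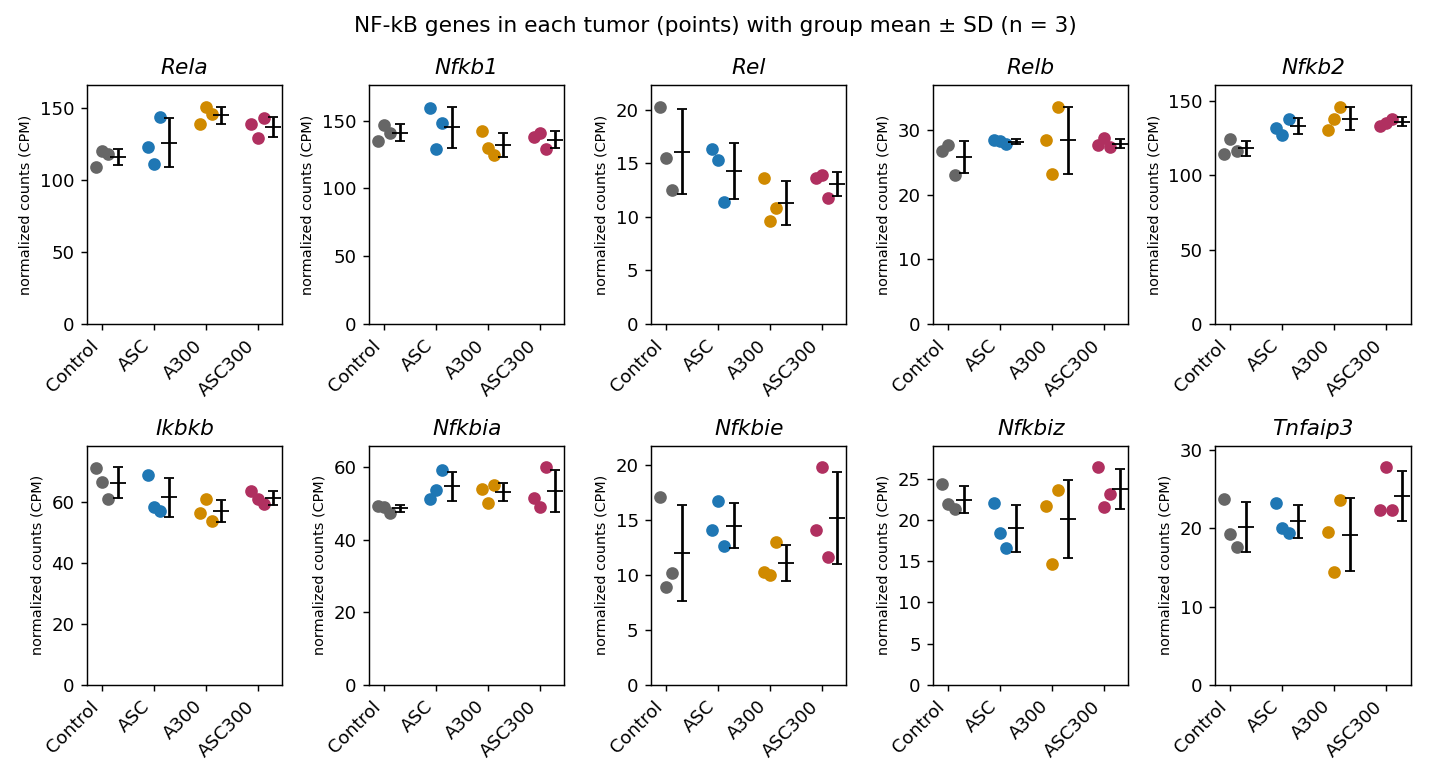
CPM of the 10 NF-kB genes (vertical axes, from 0) in each tumor by group, with bars for mean ± SD of 3 tumors. The 3 A300 tumors sit above the 3 Control tumors for Rela and Nfkb2, while Rel is highest in Control replicate 1 at 20.3 CPM and the points of the 4 groups are mixed for Nfkb1, Nfkbiz and Tnfaip3.

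Rela (ENSMUSG00000024927, chr19:5637483-5648130, plus strand), which encodes the main activating subunit p65, was at 109, 120 and 118 CPM in Control tumors. It was at 123, 111 and 144 CPM in ASC tumors, at 139, 151 and 146 CPM in A300 tumors and at 139, 129 and 143 CPM in ASC300 tumors. All 6 iAs-exposed tumors lay above all 3 Control tumors, and the ASC tumors overlapped with Control. Among all genes, 29.9% did not overlap with Control in A300 and 25.6% in ASC300 tumors, in either direction.

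Nfkb2 (ENSMUSG00000025225, chr19:46304320-46312385, plus strand), the source of p100 and p52 in the alternative route, was at 114, 124 and 116 CPM in Control tumors. Its levels were 132, 127 and 138 CPM in ASC, 130, 138 and 146 CPM in A300 and 133, 135 and 138 CPM in ASC300 tumors. Every tumor with ASC, iAs or both was thus above every Control tumor. Among all genes, 19.0% did not overlap with Control in ASC, 29.9% in A300 and 25.6% in ASC300 tumors, in either direction. The sums of 9 dendritic cell markers were also lower in Control, with 216 to 239 CPM against 269 to 350 CPM in the other groups. The same held for 9 macrophage markers (823 to 1130 CPM against 1160 to 1730 CPM) and 6 plasma cell markers (175 to 188 CPM against 190 to 219 CPM). The order among the other groups was not shared, as mean Nfkb2 was highest in A300 tumors, where macrophage sums were lowest (1160 to 1170 CPM). The part of these cells in the Nfkb2 level was not tested. Nfkb2 shares 1292 bases with AC114539.1 and 299 bases with Psd, both on the opposite strand, and whether strand was used in counting is not stated. Those genes stood at no more than 5.75 and 23.5 CPM.

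Nfkb1 (ENSMUSG00000028163, chr3:135584655-135691547, minus strand), the source of p50, stayed between 125 and 159 CPM over the 12 tumors, with group means of 141 ± 6.36 (Control), 145 ± 15.3 (ASC), 132 ± 8.76 (A300) and 136 ± 6.03 (ASC300; SD, n = 3 each). Relb (ENSMUSG00000002983, chr7:19606217-19629438, minus strand), the partner of p52, lay between 23.0 CPM in Control replicate 3 and 33.6 CPM in A300 replicate 3. The groups overlapped for Nfkb1 in each comparison with Control.

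Rel (ENSMUSG00000020275, chr11:23736847-23770970, minus strand) was at 20.3, 15.5 and 12.5 CPM in Control tumors. ASC tumors had 16.3, 15.3 and 11.4 CPM, A300 tumors 13.6, 9.59 and 10.8 CPM and ASC300 tumors 13.6, 13.9 and 11.8 CPM. The A300 mean of 11.3 ± 2.07 was below the Control mean of 16.1 ± 3.97, but the groups overlapped, and the highest Rel level belonged to Control replicate 1, the tumor with B cell markers at 270.0 CPM. The same tumor also had T cell markers at 96.8 CPM, against 18.7 and 19.9 CPM in the other Control tumors. The part of these cells in the Rel level was not tested.

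Ikbkb (ENSMUSG00000031537, chr8:22659212-22706589, minus strand) had 71.2, 66.7 and 61.0 CPM in Control tumors and 56.3, 60.9 and 53.7 CPM in A300 tumors. The groups did not overlap, as for 29.9% of all genes, but the highest A300 tumor (60.9 CPM) and the lowest Control tumor (61.0 CPM) were nearly equal. Ikbkb ranged from 57.1 to 69.0 CPM in ASC and from 59.3 to 63.7 CPM in ASC300 tumors, both overlapping with Control.

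Among the inhibitors, Nfkbia (ENSMUSG00000021025, chr12:55489410-55492647, minus strand), which encodes IkB alpha, was at 49.3, 49.0 and 47.3 CPM in Control tumors. The ASC tumors had 51.3, 53.8 and 59.2 CPM, the A300 tumors 54.0, 50.1 and 55.0 CPM and the ASC300 tumors 51.4, 48.9 and 59.9 CPM. ASC and A300 tumors lay above Control without overlap, the lowest of them at 50.1 CPM and the highest Control tumor at 49.3 CPM. Of all genes, 19.0% and 29.9% did not overlap in these comparisons, in either direction.

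Nfkbie (ENSMUSG00000023947, chr17:45555703-45563169, plus strand), which encodes IkB epsilon, was at 17.1, 8.88 and 10.2 CPM in Control tumors and varied most of the 10 genes over the 12 tumors, with a 2.23-fold span up to 19.8 CPM in ASC300 replicate 2. Its group means were 14.5 ± 2.08 in ASC, 11.1 ± 1.66 in A300 and 15.2 ± 4.22 in ASC300 (SD, n = 3). The highest Control value was again replicate 1.

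Tnfaip3 (ENSMUSG00000019850, chr10:19000910-19015657, minus strand) encodes A20, a ubiquitin-editing enzyme that shuts down signaling, and was at 23.8, 19.3 and 17.6 CPM in Control and at 22.4, 27.8 and 22.3 CPM in ASC300 tumors. Nfkbiz (ENSMUSG00000035356, chr16:55811375-55838899, minus strand), which encodes the nuclear protein IkB zeta, was at 22.5 ± 1.64 CPM in Control, 19.0 ± 2.82 in ASC, 20.1 ± 4.74 in A300 and 23.8 ± 2.45 in ASC300 tumors. Both overlapped with Control in all groups, and A300 replicate 2 had the lowest level of each, at 14.4 CPM of Tnfaip3 and 14.7 CPM of Nfkbiz.

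The first question was whether ASC in the implant changed these genes. In ASC against Control, 0 of 10 were called by edgeR's quasi-likelihood test (adjusted p under 0.05 over all genes and at least 1.5-fold), 1 had an unadjusted p under 0.05 (15.4% of all genes did), and DESeq2 called 0, while 0.721% of all genes were called. Nfkb2 had the smallest p, with a log2 fold change of 0.17 ± 0.07 (SE; edgeR adjusted p = 0.262). Nfkbia was at 0.17 ± 0.09 (adjusted p = 0.389), and Rela at 0.12 ± 0.09 (adjusted p = 0.57). The groups did not overlap for 3 of 10 genes (Nfkb2, Nfkbia and Relb, all higher), against 19.0% of all genes. For Relb the lowest ASC tumor (27.8 CPM) and the highest Control tumor (27.6 CPM) were nearly equal (edgeR adjusted p = 0.676). For 7 of 10 the 95% interval of the difference stayed within 1.5-fold in both directions, as it did for 38.7% of all genes. Such shares, here and below, cover tested genes of every level, and a share among genes of like level was not computed. The intervals of the 10 together reached from 0.654-fold (Nfkbiz) to 1.76-fold (Nfkbie).

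The second question was whether iAs alone changed them. In A300 against Control, edgeR again called 0 of 10, against 1.06% of all genes. Unadjusted p was under 0.05 for 4 of 10, compared with 24.1% of all genes: Rela and Nfkb2 were higher, Rel and Ikbkb lower. Rela had a log2 fold change of 0.33 (95% interval 0.13 to 0.53, adjusted p = 0.0659 by edgeR), Nfkb2 of 0.23 (0.08 to 0.38, adjusted p = 0.0754). With DESeq2 both passed the adjusted threshold, at 0.35 (adjusted p = 0.00857) and 0.25 (adjusted p = 0.00895), but not the fold minimum, so that its number of calls was 0 too. Ikbkb differed by -0.22 (-0.42 to -0.02, edgeR adjusted p = 0.169). For 4 of 10 genes (Rela, Nfkb2 and Nfkbia higher, Ikbkb lower) the groups did not overlap, against 29.9% of all genes, and for 8 of 10 the interval stayed within 1.5-fold, against 34.6%. The A300 tumors also had the highest sums of 9 brain and neuron markers, at 101 to 154 CPM against 43.9 to 72.0 CPM in Control tumors, and 3 of these markers were called higher. The 7 adipocyte markers summed to 197 to 455 CPM in Control, 63.2 to 130 CPM in A300 and 53.2 to 105 CPM in ASC300 tumors, without overlap, and to 73.4 to 907 CPM in ASC tumors. Lep was at 0 in at least 1 tumor, and 0 of the 7 were called by edgeR. The part of these tissues in the levels of Rela, Nfkb2 or Ikbkb was not tested. With any 1 tumor left out, Rela stayed at 0.30 to 0.38 and Nfkb2 at 0.21 to 0.29 on the log2 scale.

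Rel had the largest difference of any of the 10 genes in A300 tumors, with a log2 fold change of -0.51 (95% interval -0.95 to -0.07, adjusted p = 0.15 by edgeR). Its size depended on Control replicate 1. Without this tumor the log2 fold change was -0.29 (adjusted p = 0.47). Nfkbie was at -0.12 with all tumors and at 0.23 without Control replicate 1 (adjusted p = 0.637 by edgeR), whereas Rela kept 0.31 (adjusted p = 0.126).

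**Figure D2:**
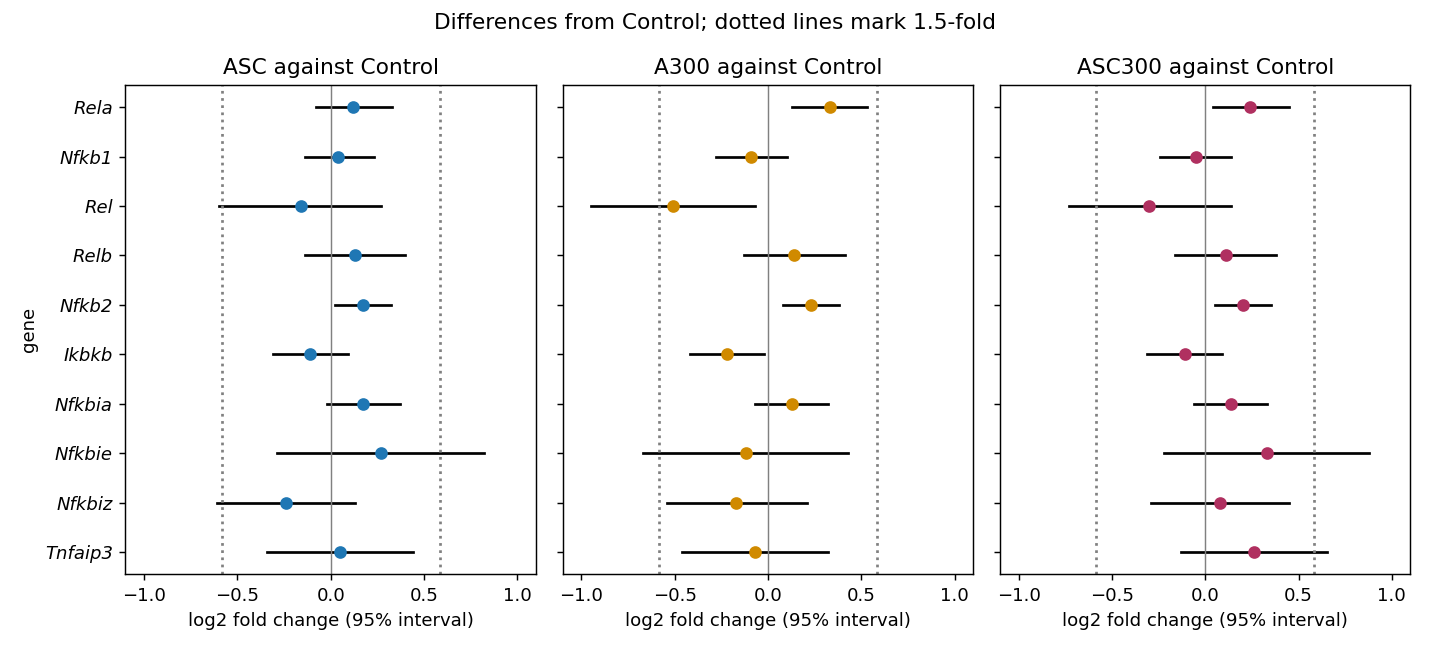
Log2 fold change of each NF-kB gene against Control (points) with its 95% interval (bars) from the edgeR model of 12 tumors; dotted lines mark 1.5-fold and the panels share the same 3 Control tumors. No point passes a dotted line. The intervals of Rela in A300 and ASC300 and of Nfkb2 in all panels lie to the right of 0, and those of Rel and Ikbkb in A300 to the left.

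For tumors with both ASC and iAs, edgeR called 0 of 10 against Control, where 0.807% of all genes were called, and DESeq2 called 0. Unadjusted p was under 0.05 for 2 of 10, against 15.2% of all genes. These were Rela, with a log2 fold change of 0.24 (0.04 to 0.45, edgeR adjusted p = 0.248), and Nfkb2 with 0.20 (0.05 to 0.35, edgeR adjusted p = 0.208), and these 2 of 10 were also the genes without overlap, against 25.6% of all genes. Nfkbie (0.33, interval -0.22 to 0.88) and Tnfaip3 (0.26, interval -0.13 to 0.65) had larger point values and wider intervals. The interval stayed within 1.5-fold for 7 of 10, against 39.1% of all genes, and the outer bounds were 0.601-fold (Rel) and 1.85-fold (Nfkbie). These 3 comparisons share the Control tumors and do not add up as separate evidence.

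Between exposed tumors, ASC300 against A300 gave 0 of 10 called by edgeR and DESeq2, 0 with an unadjusted p under 0.05 (9.98% of all genes), and 0.855% of all genes called. Nfkbie was at 0.45 (interval -0.10 to 1.01), Tnfaip3 at 0.33 (-0.06 to 0.72), and Rela at -0.08 (-0.29 to 0.12) on the log2 scale. In ASC300 against ASC, 0 of 10 and 0% of all genes were called by edgeR, with 0 of 10 at an unadjusted p under 0.05 (3.21% of all genes) and 0 calls of these genes by DESeq2. Rela was 0.12 (-0.08 to 0.32) and Nfkbiz 0.32 (-0.05 to 0.69) higher there.

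Over both iAs levels, the 6 tumors with ASC were set against the 6 without, and 0 of 10 were called by edgeR and DESeq2 with 0 at an unadjusted p under 0.05 (10.9% of all genes), against 1.45% of all genes called. The largest value was Nfkbie at 0.36 (interval -0.03 to 0.75, edgeR adjusted p = 0.52), and 9 of 10 intervals stayed within 1.5-fold, compared with 52.1% of all genes. Over both ASC levels, 0 of 10 and 0% of all genes were called by edgeR for iAs. Rela was at 0.22 (interval 0.08 to 0.37, adjusted p = 0.184 by edgeR and 0.0349 by DESeq2), Nfkb2 at 0.13 (0.02 to 0.24, edgeR adjusted p = 0.238) and Rel at -0.32 (-0.63 to -0.01, edgeR adjusted p = 0.302), the 3 genes with an unadjusted p under 0.05, as 16.0% of all genes had. The intervals of 9 of 10 stayed within 1.5-fold, against 52.3%. The interaction of ASC and iAs called 0 of 10 and 0% of all genes in edgeR, with 0 of 10 at an unadjusted p under 0.05 (13.6% of all genes). Its largest value was 0.48 for Nfkbiz (-0.04 to 1.01, edgeR adjusted p = 0.398), so that a difference between the iAs effects with and without ASC was not shown for any of these genes.

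The balance between subunits was followed within each tumor, where a ratio does not depend on the scaling of the library. The log2 ratio of Rela to Nfkb1 was -0.30, -0.30 and -0.26 in Control tumors and -0.04, 0.21 and 0.22 in A300 tumors. ASC300 tumors had 0.01, -0.13 and 0.14, also above Control, while the ASC tumors (-0.37, -0.22 and -0.03) overlapped with it. The ratio of Nfkb2 to Nfkb1 likewise averaged -0.26 ± 0.02 in Control, -0.13 ± 0.13 in ASC and 0.06 ± 0.18 in A300 tumors (SD, n = 3), and lay between -0.06 and 0.10 in ASC300 tumors. Rela to Rel was 2.43 to 3.24 in Control and 3.35 to 3.97 in A300 tumors, with Control replicate 1 the lowest, and 3.22 to 3.60 in ASC300 tumors, which overlapped with Control. Nfkbia to Rela went the other way, from -1.31 to -1.15 in Control down to -1.59 to -1.36 in A300 tumors, as Nfkbia was higher by less than Rela, and lay between -1.43 and -1.26 in ASC300 tumors, again with overlap. Relb to Nfkb2 (-2.33 to -2.09 in Control, -2.57 to -2.12 in A300) and Tnfaip3 to Nfkbia (-1.43 to -1.05 in Control, -1.80 to -1.22 in A300) overlapped with Control in all 3 groups. These 6 ratios were computed after the single levels were known and are given without a test. How many other pairs of genes separate from Control in this way was not counted. Among single genes, 29.9% did not overlap with Control in A300 and 25.6% in ASC300 tumors.

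**Figure D3:**
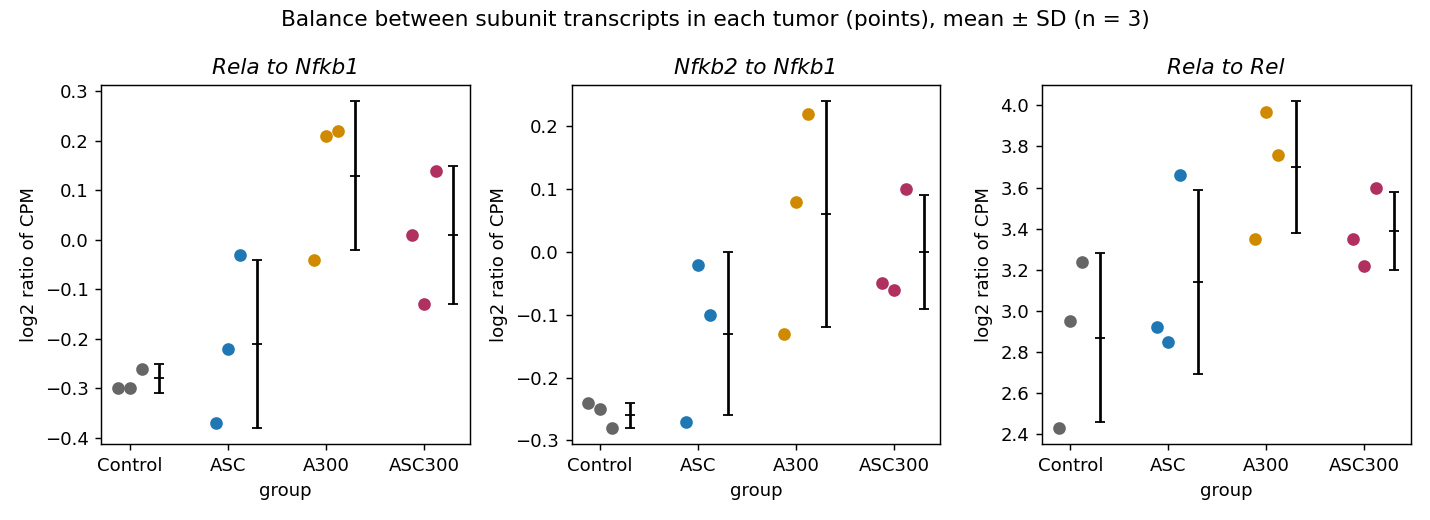
Log2 ratio of CPM of Rela to Nfkb1, Nfkb2 to Nfkb1 and Rela to Rel in each tumor (points), by group, with mean ± SD of 3 tumors. The Control tumors of the first 2 panels lie within -0.30 to -0.24 and all A300 and ASC300 tumors lie above them.

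The spread over all 12 tumors differed between the genes. The SD of log2 CPM was 0.101 for Nfkb1, 0.107 for Nfkb2, 0.108 for Nfkbia, 0.121 for Ikbkb, 0.142 for Relb and 0.162 for Rela. It was 0.24 for Nfkbiz, 0.246 for Tnfaip3, 0.294 for Rel and 0.355 for Nfkbie, the genes of lower level. Among genes of like level, within 0.5 on the log2 scale, Nfkbia stood at the 17.7th percentile of the SD and Nfkb1 at the 19.7th. Nfkb2 (25.1), Relb (26.5) and Ikbkb (28.4) were also among the less variable, while Rela (63.6), Nfkbiz (69.1), Tnfaip3 (70.2), Rel (70.3) and Nfkbie (79.9) varied more than most genes of their level.

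**Figure D4:**
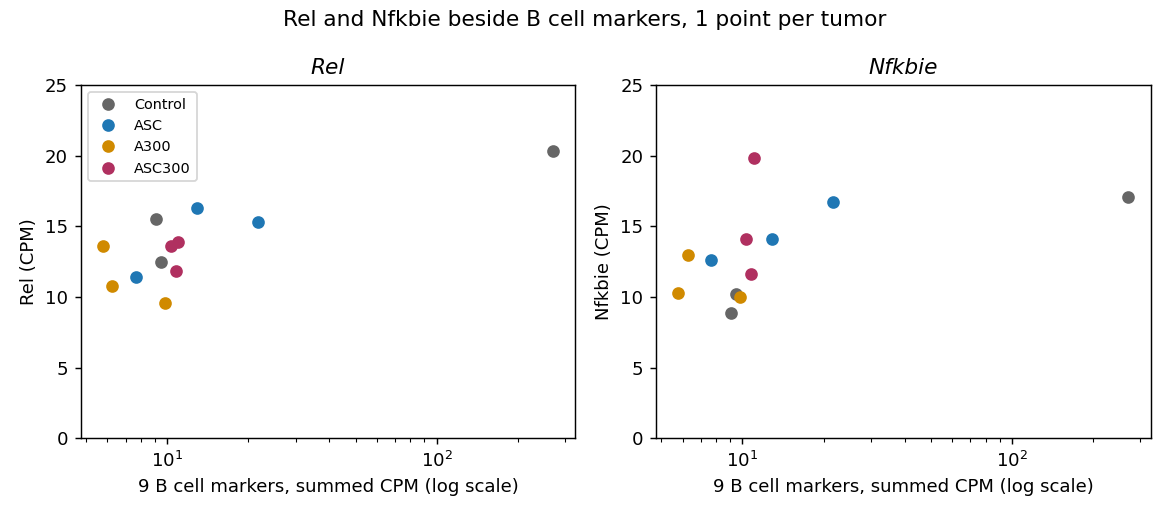
CPM of Rel (left) and Nfkbie (right) against the summed CPM of 9 B cell markers on a log axis, 1 point per tumor, colored by group. Control replicate 1 lies alone at 270.0 CPM of markers, with the highest Rel level (20.3 CPM) and an Nfkbie level of 17.1 CPM, and the other 11 tumors lie between 5.78 and 21.7 CPM of markers.

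The rest of the pathway was described with 6 lists, holding 97 genes of which 95 were tested. These were ligands, receptors, the IKK complex and other kinases (not all of them kinases), adaptors, other inhibitors and target genes. In ASC against Control and in ASC300 against Control, 0 of the 95 were called by edgeR, against 0.721% and 0.807% of all genes. A gene under the fold minimum could still pass the adjusted p. The adaptor gene Myd88 did so in both, at 0.45 (edgeR adjusted p = 0.0122) and 0.42 (edgeR adjusted p = 0.0173) on the log2 scale. In A300 against Control 2 of the 95 were called (2.11%, against 1.06% of all genes), both higher. Tradd, the adaptor of the TNF receptor, had a mean of 23.8 ± 3.4 CPM in A300 and of 15.6 ± 1.72 in Control tumors, a log2 fold change of 0.61 (edgeR adjusted p = 0.0436). Ier3, an early response gene, had 97.1 ± 10.5 and 61.1 ± 3.32 CPM, a log2 fold change of 0.67 (edgeR adjusted p = 0.0356). Both calls were lost when single tumors were left out, with adjusted p up to 0.186 for Tradd and 0.154 for Ier3, and that of Tradd also without the low-count filter and with the 6 compared tumors only.

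Over both iAs levels, 5 of the 95 were called higher with ASC and 1 lower (6.32%, against 1.45% of all genes). Tnfsf10, the death ligand TRAIL, rose by 1.82 on the log2 scale (edgeR adjusted p = 0.00147), from 3.35 ± 1.76 and 2.22 ± 0.512 CPM in Control and A300 to 10.3 ± 1.92 and 9.02 ± 0.857 CPM in ASC and ASC300 tumors. Tlr3, a receptor for double-stranded RNA, rose by 0.91 (edgeR adjusted p = 0.00237), and the protease gene Mmp9 fell by 1.25 (edgeR adjusted p = 0.00519), from 21.9 ± 7.93 and 29.5 ± 12.8 to 11.1 ± 0.322 and 10.3 ± 1.02 CPM. These 3 genes kept their calls whichever single tumor was left out. The calls of Cd40 (0.86), Tlr9 (1.11) and Ebi3 (0.74) did not withstand this, with adjusted p up to 0.103, 0.0869 and 0.147 by edgeR, and Ebi3 lost its call also with DESeq2 size factors, without the low-count filter and with the replicate block. In ASC300 against A300, Tnfsf10 (2.02), Tlr3 (1.03) and Cd83 (0.87) were called higher and Mmp9 (-1.52) lower, and each of these lost its call without at least 1 tumor, Tlr3 also with the replicate block and Cd83 with DESeq2 size factors, without the low-count filter and with counts divided by 4. Over both ASC levels and for the interaction, 0 of the 95 were called by edgeR.

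By role, the ligands had a median log2 fold change of 0.54 in ASC and of 0.41 in ASC300 against Control. The receptors had 0.34 and 0.29, the target genes 0.12 and 0.23, and the list of the IKK complex and other kinases -0.01 and 0.02. Medians over all genes were near 0. The 10 NF-kB genes had medians of 0.09 and 0.12. Tnf was at 1.64 ± 0.903 CPM in Control, 3.45 ± 0.628 in ASC, 1.78 ± 0.328 in A300 and 4.0 ± 0.878 in ASC300 tumors, a log2 fold change over both iAs levels of 1.12 (edgeR adjusted p = 0.0765). Il1b was at 7.95 ± 1.62, 9.63 ± 3.3 and 15.4 ± 3.19 CPM in Control, A300 and ASC300 tumors and at 7.27 to 16.1 CPM in ASC tumors, with 0.63 (edgeR adjusted p = 0.258). Macrophage markers were higher with ASC, and 4 of 9 were called by edgeR in ASC against Control, where 0 of 8 general leukocyte and 0 of 10 T cell markers were called. Of all genes, 0.721% were called in that comparison. The macrophage markers summed to 823 to 1130 CPM in Control, 1240 to 1730 in ASC, 1160 to 1170 in A300 and 1300 to 1550 in ASC300 tumors, and the T cell markers to 60.4 to 80.1 CPM in ASC and 52.1 to 81.5 in ASC300 tumors, against 18.7 to 96.8 in Control and 15.7 to 22.5 in A300 tumors. The part of these cells in the levels of ligands and receptors was not tested.

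As a contrast from the same tumors, 12 genes of the interferon gamma response had a median log2 fold change of 2.02 for ASC over both iAs levels. By edgeR 11 of the 12 were called higher, against 1.45% of all genes called in either direction. This list was chosen with earlier results of these data known, so that its count of calls is not independent support. Irf1, whose promoter printed above also holds a kappaB match, was at 68.1, 50.7 and 53.5 CPM in Control and at 164, 143 and 177 CPM in ASC tumors. A300 tumors had 53.2, 51.5 and 59.6 CPM and ASC300 tumors 155, 188 and 173 CPM, so that all tumors with ASC lay above all without, with a log2 fold change of 1.57 (edgeR adjusted p = 1.37e-06). Ifng itself was at 0.0868 to 0.23 CPM in Control tumors and 1.72 to 2.31 CPM in ASC tumors. In the same contrast Nfkbia was at 0.09 (interval -0.05 to 0.23) and Rela at 0.02 (-0.12 to 0.16) on the log2 scale.

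**Figure D5:**
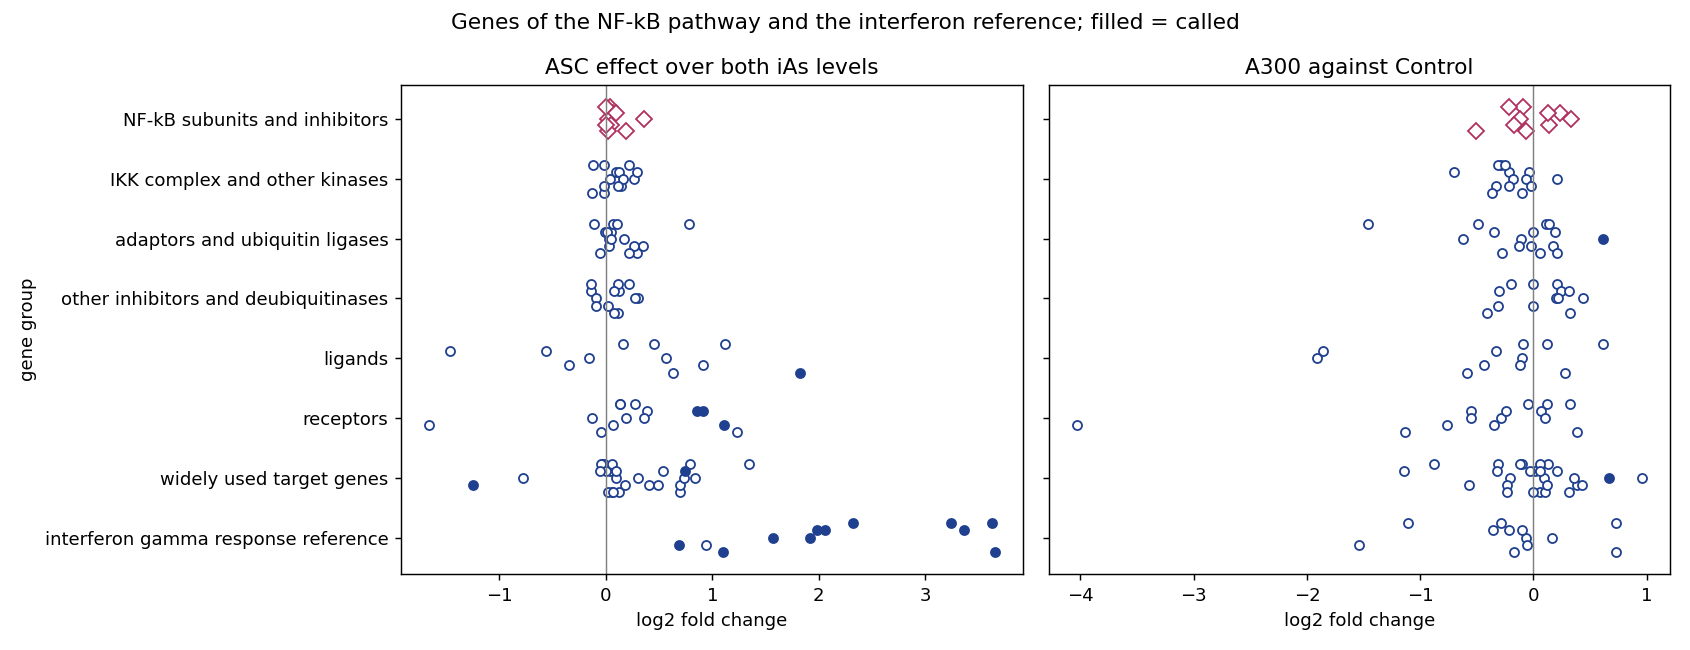
Log2 fold change of the 10 NF-kB genes (diamonds), the 6 pathway lists and the interferon gamma response genes (circles), for ASC over both iAs levels (left) and A300 against Control (right); filled symbols passed the adjusted p and the 1.5-fold minimum. The diamonds lie between 0.00 and 0.36 on the left, where 11 of 12 interferon genes are filled, and the lowest circle on the right is Tnfrsf13c at -4.03 (edgeR adjusted p = 0.17), a receptor of B cells.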

How the data were processed

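RNA sequencing of 12 tumors (4 groups of 3, grouped by their titles) was analysed from 1 table. According to the methods and the submitters' processing notes, the authors trimmed paired-end reads of stranded poly(A) libraries with Cutadapt 1.1.0, aligned them with HISAT2 2.0 and assembled them with StringTie 1.3.4. The deposited values are whole-number counts per Ensembl gene, without normalization. The counting step, its use of strand, the genome build and the annotation are not given in the sources used here. Small values often fell on multiples of 4, so that counts divided by 4 were used as an alternative. Symbols, coordinates and lengths came from GENCODE M21 (GRCm38), and 55141 of 55401 IDs had a symbol.

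Total counts ran from 39157647 to 55168642 per tumor. With R 4.3.3, edgeR 4.0.16 kept 20818 genes (filterByExpr by group), scaled them by TMM (factors 0.9535 to 1.054) and fitted its quasi-likelihood model to the 12 tumors, with each group as a mean. A call needed a Benjamini-Hochberg adjusted p under 0.05 over all genes tested and at least 1.5-fold. Levels are CPM on TMM-scaled totals, and log2 CPM had a prior count of 2. DESeq2 1.42.0 was an alternative. The scripts were tested on simulated data. Exact tests of 3 against 3 tumors cannot reach 0.05 and were not used. Each sample joined the flanks of 1 mouse, and no pair of libraries of the same group was alike within sampling noise. Pairs from different groups were not compared in this way.

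The members and lists were chosen with earlier results of these data known. The text names all 10 genes, up to 4 called genes per list and direction, and Ifng, Irf1, Tnf and Il1b. Myd88, Tab2 and Tnfrsf13c are named as further examples that were not called. Same-numbered tumors of different groups did not deviate together (2 of 18 pairs with a correlation over 0.1), so that the numbers were not taken as pairs.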

Additional observations from a re-analysis of the deposited data

How the results depend on the processing

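The number of NF-kB genes called stayed at 0 in each comparison under each alternative run for it. These were DESeq2 size factors, no low-count filter, at least 10 counts in every tumor, the DESeq2 Wald test, counts divided by 4, the 6 compared tumors only (run for the 5 comparisons of single groups), no fold minimum in edgeR, the replicate block and the omission of each tumor. Of 1490 alternative values of single genes, 1435 kept their sign and side of the threshold, 10 newly passed the adjusted p without reaching 1.5-fold, and 45 changed sign after rounding to 2 decimals, all of them of genes with differences that did not pass the test. The newly passing values were Rela in A300 against Control (0.36 with at least 10 counts, 0.35 with DESeq2, 0.37 with counts divided by 4, 0.35 without ASC replicate 1 and 0.33 without ASC replicate 3), Nfkb2 in the same comparison (0.27, 0.25 and 0.27 under the first 3), and Rela for iAs over both ASC levels (0.23 with DESeq2 and 0.28 without ASC replicate 3). The cause was not tested.

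Nfkbia in ASC300 against A300, at 0.01, turned to -0.02 with DESeq2 size factors, -0.03 with at least 10 counts, -0.02 with DESeq2, -0.03 with counts divided by 4 and -0.01 with the 6 compared tumors only. The other changes of sign came from leaving out 1 tumor. In ASC against Control the values ran from -0.03 to 0.19 for Tnfaip3, -0.3 to 0.05 for Rel and -0.01 to 0.12 for Nfkb1. In A300 against Control they ran from -0.27 to 0.23 for Nfkbie, -0.22 to 0.1 for Tnfaip3 and -0.28 to 0.01 for Nfkbiz. In ASC300 against A300 the ranges were -0.08 to 0.05 for Nfkbia, -0.02 to 0.09 for Nfkb1 and -0.16 to 0.09 for Relb. In ASC300 against ASC they were -0.18 to 0.23 for Nfkbie, -0.12 to 0.03 for Nfkbia and -0.05 to 0.07 for Ikbkb. For ASC over both iAs levels they were -0.05 to 0.12 for Rel, -0.03 to 0.06 for Rela and -0.01 to 0.12 for Relb, and Nfkbiz (-0.09 to 0.07) and Ikbkb (-0.04 to 0.03), at 0.00 with all tumors and not counted as changes of sign, lay on both sides of 0. The ranges for iAs were -0.14 to 0.15 for Nfkbie and -0.01 to 0.15 for Tnfaip3, and for the interaction -0.17 to 0.35 for Nfkbie and -0.08 to 0.05 for Nfkb1.

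With the replicate number as a block, Rela in A300 against Control was at 0.33 (edgeR adjusted p = 0.0688) and Rel at -0.49 (adjusted p = 0.0987), and 0 of the 10 genes were called in any comparison. Of the 12 tumors, 3 correlated best with their own number, and 18 same-numbered pairs had correlations of -0.124 to 0.172. Over all genes, A300 against Control moved most, from 146 higher and 74 lower calls to 8 and 0 without the low-count filter, 339 and 115 with at least 10 counts, 354 and 106 with counts divided by 4, 495 and 321 with DESeq2, and 0 to 279 higher with 1 tumor left out. DESeq2 called 373 higher and 77 lower for ASC against Control (147 and 3 in edgeR), 317 and 73 for ASC300 against Control (163 and 5), 308 and 91 for ASC300 against A300 (165 and 13), 393 and 85 for ASC over both iAs levels (283 and 18), 30 and 84 for iAs and 29 and 145 for the interaction (0 in edgeR for both). With the 6 compared tumors only, ASC against Control gave 87 and 2, and ASC300 against A300 gave 223 and 42. The 3 tumors per group limited what could be seen, as the interval for Nfkbie in ASC300 against Control (-0.22 to 0.88) would hold a change past 1.5-fold.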

Other observations

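The 14 genes listed beside Ikbkb under the IKK complex and other kinases do not all encode kinases. Of these 14, 13 were lower in A300 than in Control tumors, with a median log2 fold change of -0.22. In ASC300 against A300 tumors 13 were higher, with a median of 0.18. None was called by edgeR in either comparison, and the comparisons share the A300 tumors. Under the fold minimum, Tab2 passed the adjusted p in A300 against Control (-0.33, edgeR adjusted p = 0.045). Over all genes the medians were -0.03 and 0.0. Among 13 further inhibitors and deubiquitinases, 8 were higher in A300 tumors, with a median of 0.20, again with 0 called.

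The kappaB consensus was present in the promoters of 10 of 19 target genes with an entry and of 3 of 9 interferon gamma response genes (33.3%), against 9.55% of the 27025 genes in the table.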
